A study of Mus musculus with 6 samples.

Results

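Transcript levels of 10 genes that write DNA methylation, form Polycomb repressive complex 2 or remove histone acetylation were measured in newborn mice. The cells were sorted for the collecting duct lineage, in which the bradykinin B2 receptor gene Bdkrb2 was either intact or targeted for deletion. The 10 genes were Dnmt1, Dnmt3a, Dnmt3b, Uhrf1, Ezh2, Ezh1, Eed, Suz12, Hdac1 and Hdac2. They were taken by name, as every probe whose RefSeq accession belonged to one of these genes, and they are 10 of 20887 genes that the array's probes could be matched to. They had 17 of the array's 55681 probes, and all 17 were well above background on all 6 arrays in both channels. All 10 genes therefore passed the filter on dim probes.

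The study compared 3 WT pools with 3 MUT pools on dual-colour oligonucleotide arrays. WT pools came from Hoxb7cre+; R26RtdTomato; Bdkrb2+/+ mice and MUT pools from Hoxb7cre+; R26RtdTomato; Bdkrb2f/f mice, all C57BL/6, all at postnatal day 1 and all salt-stressed. Cells carrying both GFP and tdTomato were sorted from the kidneys, so controls carried the Cre driver and the reporter as well. The Hoxb7 promoter drives Cre in the ureteric bud, the embryonic epithelium that grows into the collecting ducts. The design thus targets Bdkrb2 for deletion in that lineage, and the labels call the MUT cells Bdkrb2-null. The labels call the pools biological replicates without saying how many mice each one held. Every array carried a pool in Cy5 and RNA of WT pool 1 in Cy3, without a dye swap. The array of WT pool 1 thus compared that RNA with itself, and a gene's value there holds dye and array effects but no difference in RNA.

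DNA methylation is set on new sites by Dnmt3a and Dnmt3b, and copied to the daughter strand after replication by Dnmt1, which Uhrf1 brings to half-methylated DNA. Polycomb repressive complex 2 methylates histone H3 through either Ezh2 or Ezh1, each held by the scaffold proteins Eed and Suz12. Hdac1 and Hdac2 are the catalytic subunits of several corepressor complexes. In the developing kidney, Ezh2 and Hdac1 with Hdac2 are known for their part in maintaining progenitor cells, and Dnmt1, Uhrf1 and Ezh2 are in many tissues more abundant in dividing cells.

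Promoters are shown for the 3 genes that were higher in MUT pools (Dnmt1, Uhrf1 and Ezh2), for Suz12 and for Ezh1, the counterpart of Ezh2. E2F, a factor family that drives S-phase genes, is known to act on several genes of this group. RefSeq (assembly GRCm38.p6) gave 14 promoter windows for 9 of the 10 genes, from 250 bases before to 50 bases after a transcription start. Each window was searched on both strands for TTTCCCGC, TTTGGCGC, TTTCGCGC or TTTGCCGC, the letters of an E2F site. Matches are in capitals below. The first 4 windows hold a match and the last, of Ezh1, holds none. Which windows to print was chosen after the matches were seen, and every window with a match is shown. Each sequence reads 5′ to 3′ on the strand of its gene.

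Dnmt1 (chr9:20952574-20952873, minus strand): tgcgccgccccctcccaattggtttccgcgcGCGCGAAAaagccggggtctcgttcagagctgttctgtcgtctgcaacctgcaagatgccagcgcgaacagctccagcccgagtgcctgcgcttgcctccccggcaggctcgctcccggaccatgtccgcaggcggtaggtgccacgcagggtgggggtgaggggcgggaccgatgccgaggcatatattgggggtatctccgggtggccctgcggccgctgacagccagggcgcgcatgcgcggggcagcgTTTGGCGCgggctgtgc
Uhrf1 (chr17:56304063-56304362, plus strand): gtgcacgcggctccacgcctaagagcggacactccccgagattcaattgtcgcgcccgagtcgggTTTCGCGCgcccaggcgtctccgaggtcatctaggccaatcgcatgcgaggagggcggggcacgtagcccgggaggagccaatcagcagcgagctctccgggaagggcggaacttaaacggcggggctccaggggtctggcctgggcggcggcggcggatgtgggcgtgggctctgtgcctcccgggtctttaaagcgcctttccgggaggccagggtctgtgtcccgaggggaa
Ezh2 (chr6:47594981-47595280, minus strand): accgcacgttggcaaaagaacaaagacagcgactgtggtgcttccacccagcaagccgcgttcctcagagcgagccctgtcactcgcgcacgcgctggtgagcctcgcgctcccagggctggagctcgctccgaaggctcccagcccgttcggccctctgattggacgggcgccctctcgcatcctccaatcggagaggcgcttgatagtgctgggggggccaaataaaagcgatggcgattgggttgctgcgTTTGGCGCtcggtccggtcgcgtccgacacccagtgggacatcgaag
Suz12 (chr11:79992856-79993155, plus strand): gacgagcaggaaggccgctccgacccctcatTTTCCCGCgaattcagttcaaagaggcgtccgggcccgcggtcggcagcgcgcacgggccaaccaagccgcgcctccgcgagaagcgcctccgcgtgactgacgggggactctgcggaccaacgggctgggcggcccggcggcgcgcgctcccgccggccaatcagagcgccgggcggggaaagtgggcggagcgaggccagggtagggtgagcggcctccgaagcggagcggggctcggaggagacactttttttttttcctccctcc
Ezh1 (chr11:101226414-101226713, minus strand): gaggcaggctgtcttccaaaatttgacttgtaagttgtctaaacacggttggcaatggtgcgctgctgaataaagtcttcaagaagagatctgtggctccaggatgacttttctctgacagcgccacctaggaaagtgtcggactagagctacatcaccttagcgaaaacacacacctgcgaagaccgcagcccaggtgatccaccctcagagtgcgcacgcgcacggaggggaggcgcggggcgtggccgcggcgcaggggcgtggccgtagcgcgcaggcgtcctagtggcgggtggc

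The Dnmt1 window held 2 matches, 1 of them on the opposite strand at 219 bases before the start (GCGCGAAA as printed). The match in Uhrf1 began 185 bases before the start, and that in Suz12 began 219 bases before it. In Ezh2 it lay just after the start. These letters occurred in 4 of the 14 windows (28.6%), against 2.26% of all 32851 mouse windows of the same length. Among windows with at least 20 CpG dinucleotides, 4 of 9 of these genes' windows (44.4%) and 5.15% of all 8701 windows held them. Of 40 windows of DNA replication and mitosis genes, 10 (25%) held them. CCAAT, on either strand, occurred in 7 of the 14 windows (50%) and in 37.4% of all windows. A match is a run of letters and was not tested as a binding site. Dnmt1 and Uhrf1 also had windows at other starts without a match, and no window of Dnmt3a, Dnmt3b, Eed or Hdac2 had one.

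Before the results, 3 features of the arrays bear on every value. MUT pool 1 stood apart: at 6.59% of probes it lay more than 0.5 (log2) below all 5 other arrays and at 1.95% it lay that far above them, against at most 0.394% and 0.18% for any other array. On the single slide, row 1 held the MUT arrays together with that of WT pool 1, and row 2 held the arrays of WT pools 2 and 3, so the rows and the groups largely coincide. The targeted gene could not check the labels, because the Bdkrb2 probe was well above background on 0 of 6 arrays, while Hoxb7, the gene whose promoter drives Cre, was lower in MUT by a log2 of -0.69. Cell type markers differed between the groups as well. Principal cell markers had a median change of -1.97 (8 of 8 tested lower) and intercalated cell markers of -2.42 (9 of 9 lower). Nephron progenitor and early nephron markers had a median change of 1.57 (9 of 11 higher), and renal stroma markers of 2.06 (9 of 9 higher). Markers of several other cells outside the lineage moved too. Medians were -2.70 for loop of Henle and distal tubule (7 of 7 lower) and -2.22 for erythroid cells (4 of 4 lower). They were -1.03 for endothelium (7 of 8 lower) and 1.23 for leukocytes (7 of 9 higher, 1 lower). Proximal tubule markers had a median of -0.73 (4 of 8 lower) and podocyte markers of 0.16 (1 of 5 higher). Within the lineage, ureteric trunk and collecting duct markers had a median of -1.63 (12 of 15 lower). The median of ureteric bud tip markers was -0.01 (0 higher and 1 lower of 10). Fewer cells of a type and less RNA per cell cannot be told apart in these bulk pools, and the part of cell mixture in the changes below was not tested.

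Dnmt1, Uhrf1 and Ezh2 were higher in MUT pools, by 1.72-fold, 1.48-fold and 1.60-fold. No other of the 10 genes passed the test, which was limma with Benjamini-Hochberg adjustment over all 28990 tested probes at an adjusted p of 0.05. The 3 of 10 genes called (30%) are close to the background, since 32.8% of all 14583 tested genes were called, 14% higher and 18.8% lower. Counted by probe, 3 of the 17 were called, all higher, against 26.2% of all tested probes called and 11.6% called higher. None of the 10 was called lower by limma, and 1 of them, Dnmt3b, was lower at an unadjusted p under 0.05, beside 5 that were higher at that level. Of all 28990 tested probes, 5329 were higher and 6010 lower at that level. The median change over the 10 genes was 0.22 (log2), against -0.02 over all tested genes. In 7 of the 10 the MUT pools did not overlap the WT pools, as in 52.6% of all genes. Values are log2 ratios of a pool to WT pool 1 at a gene's brightest probe. Changes are MUT minus WT ± SE from the fit, with 3 pools a group.

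**Figure D1:**
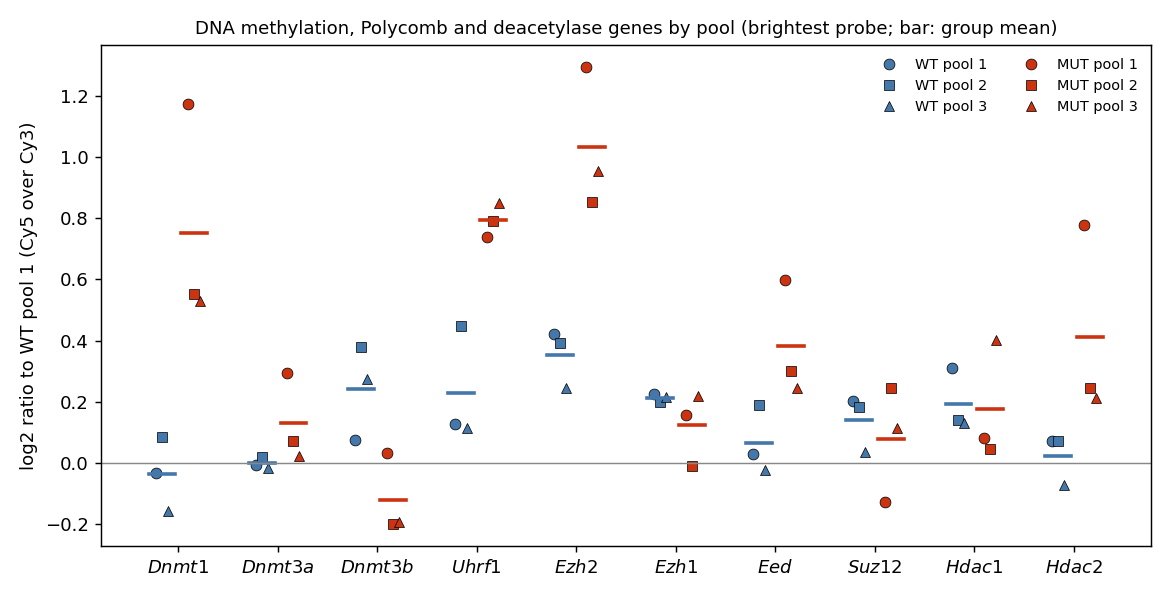
Log2 ratio of Cy5 over Cy3 at the brightest probe of each of the 10 genes, 1 point a pool (blue WT, red MUT, bar: group mean). Dnmt1, Uhrf1 and Ezh2 show every red point above every blue one, while Ezh1, Suz12 and Hdac1 overlap, and MUT pool 1 is the highest point for Dnmt1, Dnmt3a, Ezh2, Eed and Hdac2.

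Among the DNA methylation genes, the maintenance methyltransferase gene Dnmt1 read -0.03, 0.09 and -0.16 in WT pools 1, 2 and 3, and 1.17, 0.55 and 0.53 in MUT pools 1, 2 and 3. MUT pool 1 was well above the other MUT pools, and all MUT pools lay above all WT pools. The change was 0.79 ± 0.18 (limma adjusted p = 0.0164), and 0.58 (adjusted p = 0.0033) without MUT pool 1. Uhrf1, whose protein recruits Dnmt1 to newly replicated DNA, read 0.13, 0.45 and 0.11 in WT pools and 0.74, 0.79 and 0.85 in MUT pools. The MUT pools were close together and above each WT pool, of which pool 2 was the highest. Its change was 0.56 ± 0.12 (limma adjusted p = 0.0119).

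The dimmer Uhrf1 probe did not show this. It read 0.01, 0.03 and -0.06 in WT pools and -0.03, 0.13 and 0.58 in MUT pools, so the groups overlapped and MUT pool 3 alone was high. Its change was 0.24 ± 0.16 (limma adjusted p = 0.313). The probes of Uhrf1 were matched to different RefSeq transcripts of the gene. They also differed greatly in signal: Cy5 net of background was 67 to 219 at the dimmer probe and 5731 to 15260 at the brighter one. Which of these differences bears on the unlike changes was not tested.

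The de novo enzymes did not pass the test. Dnmt3a read -0.01, 0.02 and -0.02 in WT pools and 0.29, 0.07 and 0.02 in MUT pools, which did not overlap by a narrow margin. Its change was 0.13 ± 0.11 (limma adjusted p = 0.403), with a 95% interval from -0.12 to 0.38, and was 0.05 without MUT pool 1. Dnmt3b read 0.08, 0.38 and 0.28 in WT pools and 0.03, -0.20 and -0.19 in MUT pools. Every MUT pool was below every WT pool, though MUT pool 1 was close to WT pool 1. The change was -0.36 ± 0.12 (limma adjusted p = 0.0634).

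Dnmt3b had 2 further probes, with changes of -0.49 ± 0.25 (limma adjusted p = 0.192) and -0.29 ± 0.11 (adjusted p = 0.0950). All 3 probes had the same sign, and none passed the test. The first of these others was at -1.07 in MUT pool 1 but at -0.11 and -0.17 in MUT pools 2 and 3, so its pools overlapped. Without MUT pool 1, the brightest probe gave -0.44 (adjusted p = 0.0173). When arrays were instead set to their spike-in control probes, the same probe gave 0.59.

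Within Polycomb repressive complex 2, the gene of the catalytic subunit Ezh2 read 0.42, 0.39 and 0.25 in WT pools and 1.29, 0.85 and 0.95 in MUT pools. MUT pool 1 was again the highest, and no MUT pool came near the WT range. The change was 0.68 ± 0.14 (limma adjusted p = 0.00911), and 0.55 without MUT pool 1. WT pool 1 read 0.42 against its own RNA, so the values of this probe do not start from 0.

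Ezh1, the gene of the alternative catalytic subunit, read 0.23, 0.20 and 0.21 in WT pools and 0.16, -0.01 and 0.22 in MUT pools. The groups overlapped, and the change was -0.09 ± 0.10 (limma adjusted p = 0.548). The other Ezh1 probes gave -0.19 and 0.10, neither called, so the sign was not settled. The probe at -0.19 was very dim, with Cy5 net of background of 41.5 to 67, against 4894 to 10720 at the brightest probe.

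The scaffold genes were not called. Eed, whose protein binds the trimethyl mark and stimulates the complex, read 0.03, 0.19 and -0.02 in WT pools and 0.60, 0.30 and 0.25 in MUT pools. The MUT pools lay above the WT pools, with MUT pool 1 the farthest, and the change of 0.31 ± 0.13 missed the threshold (limma adjusted p = 0.107) and was 0.21 without MUT pool 1. Suz12, needed for the stability of the complex, read 0.20, 0.18 and 0.04 in WT pools and -0.13, 0.25 and 0.11 in MUT pools. These overlapped widely, with a change of -0.06 ± 0.12 (adjusted p = 0.739) that lay between -0.35 and 0.22 (95% interval).

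Neither deacetylase gene was called. Hdac1 read 0.31, 0.14 and 0.13 in WT pools and 0.08, 0.05 and 0.40 in MUT pools. MUT pool 3 was the highest and MUT pool 2 the lowest of all 6, and the change was -0.02 ± 0.13 (limma adjusted p = 0.940). Its other probes gave 0.18 and 0.07, also not called.

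Hdac2 read 0.07, 0.07 and -0.07 in WT pools and 0.78, 0.25 and 0.21 in MUT pools. The pools did not overlap, and MUT pool 1 stood far above the other MUT pools. The change was 0.39 ± 0.16 (limma adjusted p = 0.117), and 0.21 without MUT pool 1. Its probe was printed at 10 spots on each array, and the SD over those spots used was 0.06 to 0.13 on any array, so the gap between MUT pool 1 and the other MUT pools was larger than the spread over spots. The probe was dim, with Cy5 net of background of 80 to 374. The size of its change moved with the processing, to 0.49 with a normexp offset of 10 and 0.60 with the scanner software's ratio, neither called.

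**Figure D2:**
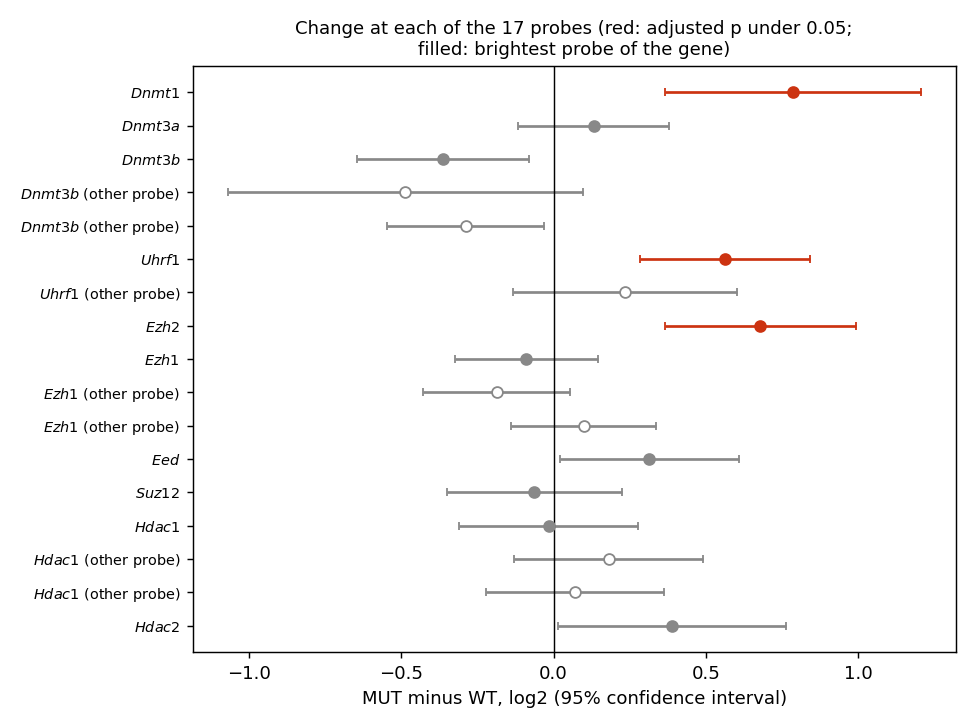
Change from WT to MUT (log2, points) with 95% confidence intervals (bars) at each of the 17 probes of the 10 genes, filled for a gene's brightest probe and red for an adjusted p under 0.05. The red probes are those of Dnmt1 (0.79), Uhrf1 (0.56) and Ezh2 (0.68), the second Uhrf1 probe is grey at 0.24, and all 3 Dnmt3b probes lie below 0.

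Partner genes were compared inside each array, where a shift shared by all its probes cancels in the difference of 2 log2 ratios. Other processing can move the difference. Hdac1 minus Hdac2 changed by -0.40 with loess, -0.29 with median centring and -0.63 with the scanner software's ratio. With 3 pools against 3, the exact two-sided permutation test cannot give a p under 0.1, so no pair could pass a threshold of 0.05. Ezh2 minus Ezh1 was 0.20, 0.19 and 0.03 in WT pools and 1.13, 0.86 and 0.74 in MUT pools. The MUT values were all well above the WT values, a difference of 0.77 (exact permutation p = 0.1, adjusted over 6 pairs 0.15). Across 16 settings it ranged from 0.66 to 0.86, though some of these, such as spike-in controls after loess, cannot move a within-array difference.

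Dnmt3b minus Dnmt3a was 0.08, 0.36 and 0.29 in WT pools and -0.26, -0.27 and -0.22 in MUT pools, a difference of -0.49 (exact permutation p = 0.1, adjusted 0.15). All MUT values were below all WT values, and the difference lay between -0.60 and -0.33 over the same settings. Dnmt1 minus Dnmt3a differed by 0.65 and Eed minus Suz12 by 0.38, both without overlap of the pools (exact permutation p = 0.1, adjusted 0.15, for each). Without MUT pool 1, the Eed minus Suz12 difference was 0.17. Hdac1 minus Hdac2 overlapped between groups and differed by -0.40 (exact permutation p = 0.2, adjusted 0.24), by -0.17 without MUT pool 1 and by -0.62 without MUT pool 3. Dnmt1 minus Uhrf1 differed by 0.22 (exact permutation p = 0.6) and by -0.02 without MUT pool 1.

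**Figure D3:**
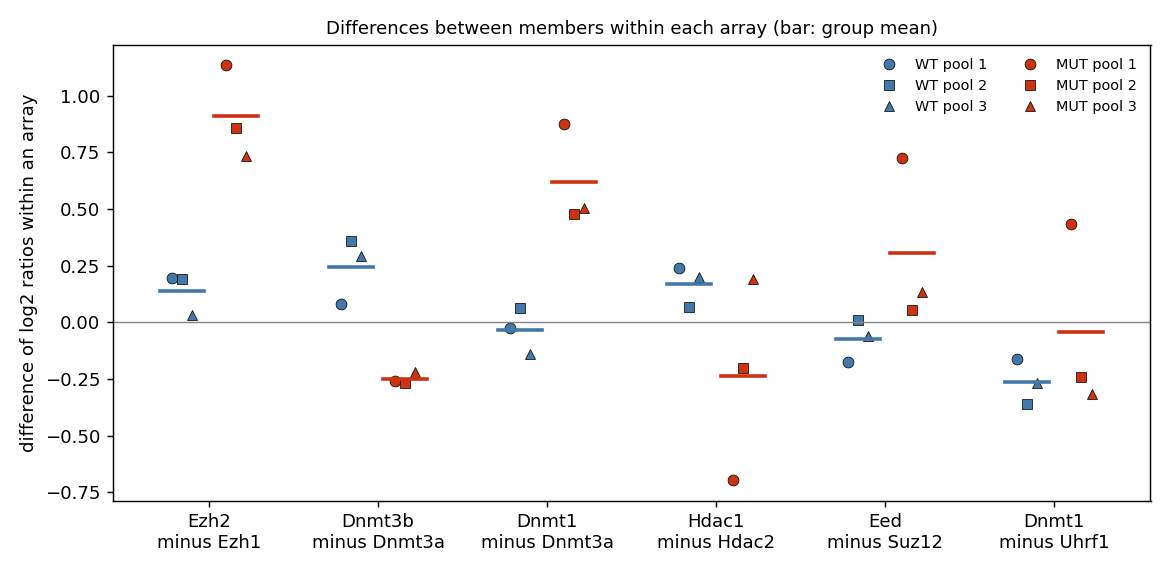
Within-array difference of 2 genes' log2 ratios (y axis) for 6 pairs, 1 point a pool. Ezh2 minus Ezh1 is 0.74 to 1.13 in MUT pools and at most 0.20 in WT pools, and Dnmt3b minus Dnmt3a is below 0 in MUT pools only.

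The changes of the 10 genes were set beside those of DNA replication and mitosis genes, a list in which nearly every gene was higher in MUT. Of 43 tested genes 40 were higher and 0 lower by limma (0 lower also at an unadjusted p under 0.05), with a median change of 0.62. Mki67, the marker of cycling cells, read -0.01, -0.06 and -0.06 in WT pools and 0.63, 0.50 and 0.67 in MUT pools, and its change was 0.64 ± 0.10 (limma adjusted p = 0.00276). The DNA topoisomerase gene Top2a rose by 0.85, the replication clamp gene Pcna by 0.57 and the helicase gene Mcm2 by 0.61. In the replication group, 21 of 23 genes were higher (median 0.61), from Rrm2 at 0.14, which was not called, to Mcm3 at 1.10. In the mitosis group, 19 of 20 were higher (median 0.64), from Cenpf at 0.04, not called, to Cenpe at 0.99. Without WT pool 3, 23 of the 43 genes were called, at a median change of 0.58, beside 3831 of all 28990 tested probes. With slide row as a block, the median change of the 43 genes was 0.61.

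After subtracting the median of the replication genes in each array, the changes of Uhrf1, Ezh2 and Dnmt1 were 0.00, 0.12 and 0.22. For Dnmt1, MUT pool 1 stood 0.51 above that median, while MUT pools 2 and 3 were at -0.06 and -0.12, close to the WT values of -0.06, -0.14 and -0.14. The other genes had changes below the replication median, by -0.17 for Hdac2, -0.25 for Eed, -0.43 for Dnmt3a, -0.58 for Hdac1, -0.63 for Suz12, -0.65 for Ezh1 and -0.92 for Dnmt3b. These differences are descriptions, and whether the 3 rises follow the replication genes was not tested.

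By the smallest root mean square difference over the 6 arrays, the genes most like Dnmt1 were Map4k4 (0.05) and the ribonucleotide reductase gene Rrm1 (0.07). Those most like Uhrf1 were Traip (0.04) and the methyltransferase gene Smyd2 (0.05). Those most like Ezh2 were the zinc finger genes Zfp266 (0.07) and Zfp760 (0.10). With 6 arrays in 2 groups, such likeness is found for many genes and is given as a description.

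Of 77 listed partner genes 75 were tested, with 10 higher and 8 lower (24%, against the background of 32.8%), and the median change was 0.04. With median centring and no loess, 16 were higher and 0 lower by limma (2 lower at an unadjusted p under 0.05). Every one of these 8 falls was positive when the arrays were set to spike-in controls, which moved the median of all probes to 0.95, so they are falls relative to the typical probe. Without WT pool 3 or WT pool 1, 6 and 9 of the 75 genes were called. Of all 28990 tested probes, 3831 and 4890 were called in these settings, against 7584 with all pools. With slide row as a block, the median change of the 75 genes was -0.01. Among readers, erasers and cofactors of DNA methylation, 1 of 16 was higher and 1 lower. The chromatin remodeller gene Hells, needed for normal DNA methylation, rose by 0.48 ± 0.11 (limma adjusted p = 0.0143), and Mbd2, whose protein binds methylated DNA, fell by 0.37 (0.58 with spike-in controls).

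Of 9 accessory and opposing genes of Polycomb repressive complex 2, Phf19 alone was called at its brightest probe. A dimmer probe of the histone chaperone gene Rbbp4 was also higher, by 0.41 ± 0.12 (limma adjusted p = 0.0466), while its brightest probe gave 0.33 (adjusted p = 0.0967). Phf19 encodes a Polycomb-like protein that recruits the complex, and read -0.03, -0.05 and -0.05 in WT pools and 2.00, 1.81 and 0.82 in MUT pools. MUT pool 3 was much lower than the other MUT pools and still above each WT pool. The change of 1.58 ± 0.28 (limma adjusted p = 0.00523), 3.00-fold, was the largest of the partner list. The smallest changes in this group were those of Rbbp7, which encodes a related chaperone (0.09), and of Aebp2 (0.11), neither called.

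Polycomb repressive complex 1 binds the mark and modifies histone H2A, and 5 of its 19 tested genes were higher and 2 lower. Kdm2b, which targets a variant of the complex to CpG islands, rose by 0.84 ± 0.18 (limma adjusted p = 0.0125). Cbx2, a reader of the mark, rose by 0.82 ± 0.15 (adjusted p = 0.00633), while Pcgf5 fell by 0.71 and the reader gene Cbx6 fell by 0.58 (with spike-in controls 0.24 and 0.37). The other 3 that rose were Bmi1 (0.54), Rnf2 (0.48) and Yaf2 (0.45).

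Of 16 other deacetylase genes, 1 was higher and 4 were lower. Sirt1 rose by 0.49 ± 0.13 (limma adjusted p = 0.0236). The mitochondrial enzyme gene Sirt5 fell by 0.79 and the cytoplasmic tubulin deacetylase gene Hdac6 fell by 0.76, though with spike-in controls they gave 0.15 and 0.19. Sirt5 read 0.04, -0.11 and -0.03 in WT pools and -0.91, -0.90 and -0.68 in MUT pools, without overlap. Sirt3 and Hdac11 were the other 2 that were lower, by -0.71 and -0.61 (0.24 and 0.34 with spike-in controls). Of 15 tested corepressor genes, Sall1 rose by 0.95 ± 0.14 (limma adjusted p = 0.00253) and Mta1 by 0.53, and Sin3b fell by 0.38. Sall1 was also on the nephron progenitor list. The second Sin3b probe gave 0.16, and the first gave 0.03 with median centring and 0.57 with spike-in controls.

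**Figure D4:**
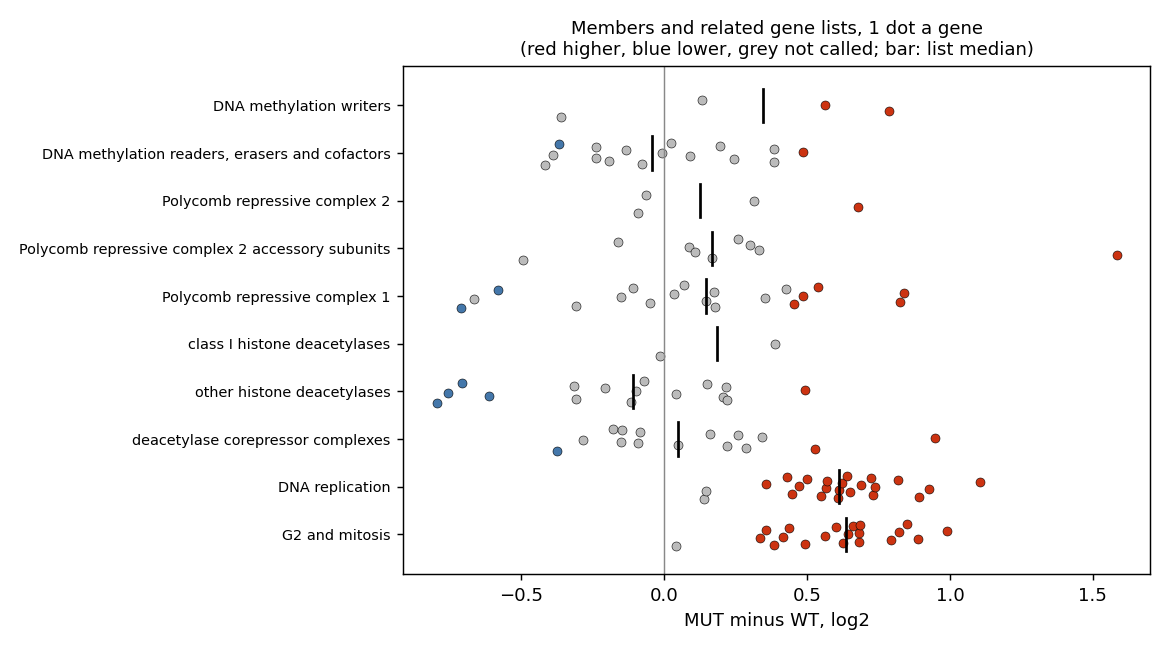
Change from WT to MUT (log2, x axis), 1 dot a gene, for the 10 genes by role, their partner genes and DNA replication and mitosis genes (red higher, blue lower, grey not called, bar: list median). The replication and mitosis genes centre at 0.61 and 0.64, while the partner groups straddle 0.

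Scaling decided the level against which these changes were read. With each array centred on its median and no loess, the median of all probes was 0.23, and with spike-in controls after loess it was 0.95. The share of called probes that were higher in MUT was 44.2% with loess, 77.3% with median centring and 98.9% with spike-in controls. The calls of Dnmt1, Uhrf1 and Ezh2 were kept with median centring and with spike-in controls. With spike-in controls, 9 of the 10 genes were called higher, beside 18936 of all 28990 tested probes. That setting subtracts 1 shift from each array after loess, 0.01, 0.39 and 1.01 in WT pools 1, 2 and 3. In MUT pools 1, 2 and 3 the shifts were -0.70, -0.55 and -0.18. All genes share these shifts and an SE of 0.38, so the 9 calls are not separate evidence for each gene. With slide row as a block, the change rests on WT pool 1 alone against the MUT pools, because row 2 held only WT pools. It was 0.79 ± 0.28 for Dnmt1, 0.66 ± 0.18 for Uhrf1 and 0.61 ± 0.21 for Ezh2. The part of the row in the changes was not tested. Without WT pool 3, 0 of the 10 were called by limma (3 at an unadjusted p under 0.05). Of all 28990 tested probes, 3831 were called in that setting, against 7584 with all pools. The adjusted p was then 0.0765 for Dnmt1, 0.0617 for Uhrf1 and 0.0501 for Ezh2. Without WT pool 1, 4890 of all tested probes were called, and of the 10 genes only Ezh2 was (limma adjusted p = 0.0295).

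**Figure D5:**
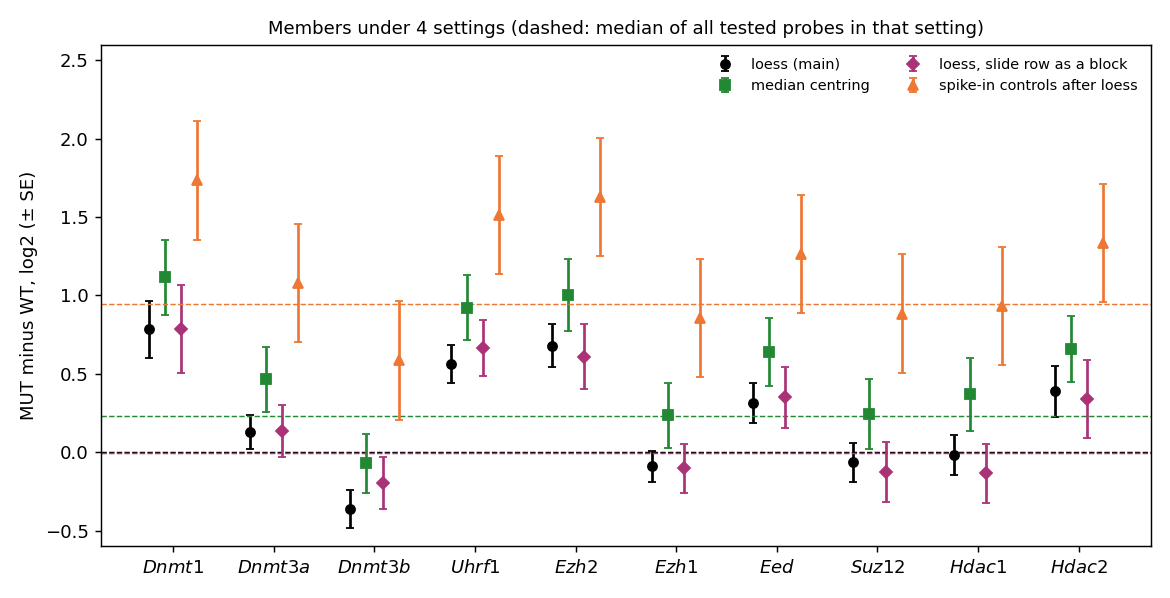
Change from WT to MUT (log2, points) ± SE (bars) of the 10 genes under 4 settings, with dashed lines at the median of all tested probes in each. Dnmt1, Uhrf1 and Ezh2 are the 3 highest and Dnmt3b the lowest in each setting, and spike-in scaling lifts all of them along with the median of 0.95.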

How the data were processed

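Total RNA (0.5 µg per labelling) of 3 WT and 3 MUT pools was hybridised to Agilent mouse arrays, with the pool in Cy5 and WT pool 1 in Cy3, per the labels. Per the submitters' processing notes, the scans were quantified in Agilent Feature Extraction 10.7.3.1. The deposited scanner files hold spot intensity and local background in each channel, per the file headers. The deposited value table holds the scanner software's log10 ratio of Cy5 over Cy3, within 0.00499 of the scanner files, and was used through those files as an alternative.

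Median intensity and local background were corrected by normexp (offset 50), and log2 ratios were normalized within arrays by loess (span 0.3, control spots at weight 0). Control and outlier spots were left out, no spot was saturated, and spots of a probe were averaged. Of 59305 spots that were not controls, 55681 distinct probes arose, and 28990 (52.1%) were kept because the Cy5 signal was well above background on every array of the WT or of the MUT group. Between 27021 and 31312 probes passed on an array. Precision is limited by having 6 arrays. RefSeq accessions were matched to a GRCm38.p6 table, naming 27509 probes. The scanner headers name another build, so coordinates are those of the RefSeq windows alone.

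MUT was compared with WT by limma 3.58.1 (lmFit, eBayes) in R 4.3.3 with data.table (version 1.17.8), without covariates, with p-values adjusted by Benjamini-Hochberg across the tested probes and a threshold of 0.05. Each gene's value is that of its tested probe with the highest mean intensity. Differences between partner genes used an exact permutation test. Figures used Python 3.11.15 with matplotlib 3.10.9.

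The text names all 10 genes and their probes, the 2 largest rises and falls among called genes of each partner group (with the smallest changes where 1 was called), Mki67, Top2a, Pcna and Mcm2 with each group's extremes, and the 2 nearest genes of each called gene. Further called partners (Bmi1, Rnf2, Yaf2, Sirt3 and Hdac11), Rbbp4 and the probes listed for MUT pool 1 were described after their values were seen. The 10 genes and all lists were chosen with earlier results of these data known. The choice of promoters to print was made after the matches were seen.

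On simulated data with 28990 probes, the pipeline recovered 8.96%, 50.7% and 81.8% of changes of 0.5, 1 and 2 (log2), estimated at medians of 0.334, 0.811 and 1.64, and 6 of 100 calls were false. These medians lay below the values put in. Whether the changes in the data were understated as well was not tested. Alternatives covered background, normalization, filter, channel, probe choice, test, blocks and each pool left out. Same-numbered pools deviated together at correlations of 0.14, 0.07 and 0.20, so the numbers were not taken as pairs.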

Additional observations from a re-analysis of the deposited data

How the results depend on the processing

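Dnmt1, Uhrf1 and Ezh2 kept their direction under every alternative run. With arrays set to spike-in controls, 19148 probes, 9 of the 10 genes and 50 partner genes were called after loess, and 17025, 9 and 50 without loess, a setting chosen after seeing the data. With slide row as a block, 2194 probes, 0 of the 10 genes (limma; 3 at an unadjusted p under 0.05), 4 partner genes and 7 replication and mitosis genes were called. Leaving out each pool in turn gave 3831 to 9536 probes, 0 to 4 of the 10 genes, 6 to 23 partner genes and 23 to 40 replication and mitosis genes, with the lowest counts without WT pool 3. The paired analysis, with pool number as a replicate block, called 7252 probes, 3 of the 10 genes, 16 partner genes and 36 replication and mitosis genes. Each pool correlated best with its own number, which is a hint from the data and not from the design.

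Among the 10 genes and 6 pairs, sign changed for 4 genes that were not called and for 1 pair, and the 8 partner genes called lower were all positive with spike-in controls. With spike-in controls after and without loess, Dnmt3b gave 0.59 and 0.57, Ezh1 0.86 and 0.88, Suz12 0.88 and 0.88, and Hdac1 0.93 and 1.01. Median centring gave 0.24 for Ezh1, 0.24 for Suz12 and 0.37 for Hdac1. The Cy5 channel alone gave 0.0013 for Ezh1, 0.10 for Suz12 and 0.089 for Hdac1. Array weights gave 0.021 for Suz12 and 0.0097 for Hdac1. Suz12 was 0.056 with the scanner software's ratio. Hdac1 was 0.0033 without background correction and 0.026 with an offset of 10. Other probes gave 0.10 for Ezh1 and 0.18 and 0.071 for Hdac1. With each pool left out, Suz12 ranged from -0.15 to 0.039, Hdac1 from -0.13 to 0.049 and Dnmt1 minus Uhrf1 from -0.015 to 0.36. The cause of these changes was not tested. In the simulation most changes of 0.5 were missed, but far fewer probes changed there than were called in the data, so this share need not hold here.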

Other observations

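Among 128 probes of the 10 genes and their partners, 18 probes of 17 genes had 1 array more than 0.5 (log2) outside the other 5, and in each case that array was MUT pool 1, below the others at 12 probes and above at 6. It was above them at Dnmt1, Hdac2, the deacetylase complex gene Sap30 (1.13, others 0.11 to 0.29), the Polycomb-like gene Mtf2 (0.83, others -0.02 to 0.31) and both probes of Sirt4. It was below them at Tet1, whose protein oxidises methylated cytosine: MUT pool 1 read -1.13 while MUT pools 2 and 3 read 0.67 and 0.66 and the WT pools 0.17, 0.12 and 0.14. The histone demethylase gene Kdm6a read -1.10 there (others -0.36 to 0.12), the methyl-CpG binding gene Zbtb38 -1.56 (others -0.43 to -0.03) and Gatad2b -1.22 (others -0.30 to 0.26).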
